A study of Homo sapiens with 4 samples.

Results

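The genes described here are 9 enzymes of the pentose phosphate pathway and of the other routes that make NADPH: PGLS, PGD, RPIA, RPE, TKT, TALDO1, ME1, IDH1 and NNT. They were chosen by name, for their known function but with earlier results of these data known, from the 19739 genes of the coding table. Of the 9, 8 were found by symbol. The other, PGLS, was found by its Ensembl identifier, ENSG00000130313, because the table lists that identifier under the symbol AC010618.1. RNA was sequenced from treated and untreated cultures of the human liver cancer lines Huh7 and HepG2. Treated cells received low-frequency ultrasound and RSL3@O2-ICG NBS, with 24 h given as the time of the treatment and not of the ultrasound alone. RSL3 is an inhibitor of the lipid peroxidase GPX4 and an inducer of ferroptosis, a cell death driven by lipid peroxidation. The labels do not spell out NBS. The 4 groups (treated Huh7, untreated Huh7, treated HepG2 and untreated HepG2) held 1 library each, so no value has a replicate, and no library analysed here received the ultrasound, the carrier or RSL3 alone.

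The pentose phosphate pathway branches off glycolysis. Its oxidative branch burns part of a hexose phosphate to a pentose phosphate and makes NADPH, and its nonoxidative branch exchanges carbon units between sugar phosphates and leads back to glycolysis or on to ribose for nucleotides. NADPH is the reductant that recycles glutathione and thioredoxin and feeds fatty acid and cholesterol synthesis, all of them active in liver. Several of these enzymes, among them PGD, TKT, TALDO1 and ME1, are known targets of NRF2, the transcription factor of the antioxidant response.

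The libraries labelled HepG2 did not show the liver markers that their label calls for. Of 13 hepatocyte genes (ALB, AFP, FGA, FGB, FGG, TF, TTR, AHSG, APOA1, APOH, SERPINA1, HNF4A and FOXA2), all 13 reached 1 FPKM (fragments per kilobase of transcript, scaled to the depth of the library) in each Huh7 library, and 0 of 13 did in either library labelled HepG2. Their summed level was 1439 FPKM in treated and 1973 FPKM in untreated Huh7, against 0.429 FPKM in the treated and 0.528 FPKM in the untreated library labelled HepG2, where 9 and 10 of them were listed at 0. These cells are therefore called HepG2-labelled, and every comparison with Huh7 holds for cells so labelled. The step of the low values gives the depth: 1 FPKM stood for about 23 fragments per kilobase in treated and 26 in untreated Huh7, and for 23 in treated and 26 in untreated HepG2-labelled cells. Of 4 blood cell markers, CD14 alone reached 1 FPKM, in Huh7, and the 4 summed to 2.30 FPKM in treated and 15.2 FPKM in untreated Huh7. None of 4 endothelial markers reached 1 FPKM, and 5 fibroblast markers summed to 2.18 FPKM in treated and 6.27 FPKM in untreated Huh7 and to 4.26 FPKM in treated and 7.64 FPKM in untreated HepG2-labelled cells. The part of these marker differences in the results was not tested.

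Several of the 9 being known NRF2 targets, the RefSeq promoter windows (GRCh38.p14, 250 bases before to 50 after each start) were searched for the core of the antioxidant response element, TGACNNNGC, on both strands. All 9 genes matched, with 11 windows, since IDH1 and NNT have 2 each. The core was present in 4 of the 11 windows, those of PGD, RPE, ME1 and a window of IDH1, and in 4687 of all 35116 windows of this length (13.3%). The windows of PGLS, RPIA, TKT, TALDO1 and NNT did not hold these letters. The upstream matches are shown with 20 bases on each side, 5′ to 3′ on the strand of the gene, with the core in capitals. In PGD the core reads on the opposite strand, so its reverse complement stands in capitals.
ME1: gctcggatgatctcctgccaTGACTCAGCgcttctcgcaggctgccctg
PGD: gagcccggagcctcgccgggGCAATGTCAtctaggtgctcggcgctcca
IDH1: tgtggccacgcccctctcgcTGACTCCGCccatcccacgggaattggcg
RPE: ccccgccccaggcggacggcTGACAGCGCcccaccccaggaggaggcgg
The ME1 stretch lies at chr6:83431160-83431208 on the minus strand, with its core 137 to 129 bases before the start, and the first letters of that core, TGACTCA, are also the AP-1 motif. The PGD stretch lies at chr1:10398843-10398891 on the plus strand (201 to 193 bases before the start), the IDH1 stretch at chr2:208255186-208255234 on the minus strand (143 to 135 bases) and the RPE stretch at chr2:210002467-210002515 on the plus strand (151 to 143 bases). ME1 holds a further core after its start. A match is a description of the letters and not evidence of binding.

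All 9 genes were expressed in all 4 libraries, over a wide range. In treated Huh7 the order from highest to lowest was TALDO1 (280 FPKM), TKT (195 FPKM), IDH1 (166 FPKM), PGLS (114 FPKM), PGD (101 FPKM), ME1 (85.3 FPKM), RPE (12.2 FPKM), NNT (8.30 FPKM) and RPIA (7.86 FPKM). In untreated HepG2-labelled cells TKT led with 349 FPKM, ahead of TALDO1 with 217 FPKM, and RPIA was again the lowest with 9.97 FPKM. By rank among all coding genes, TKT stood between 130 and 415 and TALDO1 between 153 and 235 over the 4 libraries, whereas RPIA stood between 5757 and 6754. The order of neighbours such as NNT and RPIA in Huh7 cannot be settled without replicates: in the untreated library they stood at 8.89 and 8.90 FPKM.

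**Figure D1:**
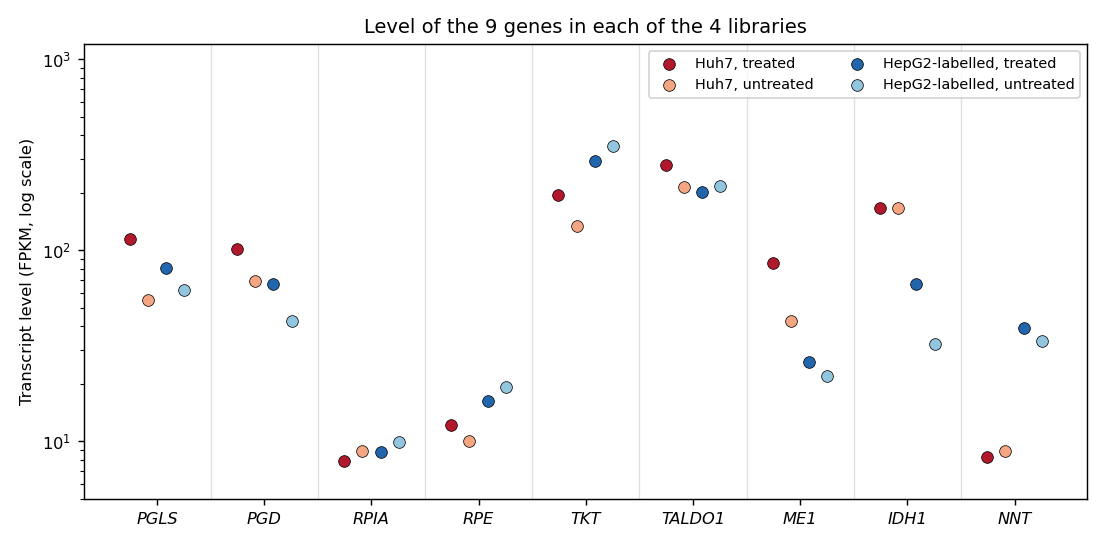
Level of the 9 genes in the 4 libraries (FPKM, log scale), 1 point per library, with treated left of untreated in each line. TKT and TALDO1 lie highest and RPIA lowest in HepG2-labelled cells; IDH1 and ME1 lie higher in Huh7, and TKT and NNT higher in HepG2-labelled cells.

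The question put to these genes is whether the treatment changed the transcripts of NADPH supply. In Huh7 the treated library was the higher one for 7 of the 9 genes, with a median log2 ratio of 0.38 (log2 of treated FPKM + 1 over untreated FPKM + 1), beside a median of 0.10 over 11945 genes with at least 1 FPKM in a library of the line, of which 58.8% were above 0. In HepG2-labelled cells 5 of the 9 were higher, with a median of 0.22 beside 0.09 over 11843 genes, of which 56.9% were above 0. At least 2-fold higher on this scale was 1 of 9 in Huh7, PGLS, where 3.88% of all genes were, and 1 of 9 in HepG2-labelled cells, IDH1, where 6.7% were. At least 2-fold lower were 0 of 9 in either line, where 2.19% of all genes were in Huh7 and 2.43% in HepG2-labelled cells. Both calls ended when libraries were scaled by the median ratio of their genes (log2 ratio 0.93 for PGLS and 0.97 for IDH1), a scaling that moved the Huh7 median of all genes from 0.10 to −0.002 and the share of higher genes among those past 2-fold from 64.0% to 49.7%. In such bulk samples, fewer cells with a transcript and less of it per cell cannot be told apart.

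The test across libraries took the lines as a block. It used limma on log2(FPKM + 1) of 13030 genes, with 1 residual degree of freedom. Its error joins the disagreement between the lines for a gene with a variance fitted over all genes. The variance fitted over all genes carried 6.56 degrees of freedom. Neither part is a spread between repeat cultures. By this test 0 of the 9 genes passed an adjusted p (Benjamini-Hochberg) of 0.05 for the treatment, as did 0 of all genes tested (0%), of which 1534 had an unadjusted p under 0.05. The lowest values among the 9 were those of PGLS (log2 fold 0.72, SE 0.235, limma adjusted p = 0.333, 0.29 to 1.0 under the alternatives, the highest in a fit without the block), PGD (log2 fold 0.58, SE 0.205, limma adjusted p = 0.35) and ME1 (log2 fold 0.60, SE 0.257, limma adjusted p = 0.422), each higher in both lines. These 3 were the members with an unadjusted p under 0.05.

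Both genes of the oxidative branch were higher in the treated library of both lines. PGLS encodes the lactonase that opens the lactone made in the first step of the branch (chromosome 19, 17511636 to 17521288, on GRCh38 like the positions of the other genes). It stood at 114 FPKM in treated and 54.6 FPKM in untreated Huh7, and at 80.9 FPKM in treated and 61.6 FPKM in untreated HepG2-labelled cells. Both treated libraries lay above both untreated ones. The ratio of FPKM was 2.09 in Huh7 (95% counting interval 1.95 to 2.22) and 1.31 in HepG2-labelled cells (1.23 to 1.41). These intervals rest on the inferred fragments per kilobase of transcript, 2606 and 1443 for PGLS in treated and untreated Huh7, and cover counting error only, not the spread between cultures. They leave out the length of the transcript, so for transcripts longer than a kilobase the counting error itself would be smaller than shown.

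PGD encodes phosphogluconate dehydrogenase, which makes NADPH while releasing carbon dioxide (chromosome 1, 10398592 to 10420511). Its level was 101 FPKM in treated and 69.3 FPKM in untreated Huh7, and 66.8 FPKM in treated and 42.8 FPKM in untreated HepG2-labelled cells. The treated library was thus the higher one within each line, while treated HepG2-labelled cells stayed just under untreated Huh7. The ratio was 1.46 in Huh7 (1.37 to 1.55) and 1.56 in HepG2-labelled cells (1.44 to 1.69), and its log2 ratios in the lines differed by less than those of any other member but RPIA. Summed over PGLS and PGD, the oxidative genes reached 215 FPKM in treated and 124 FPKM in untreated Huh7, a ratio of 1.73, and 148 FPKM in treated and 104 FPKM in untreated HepG2-labelled cells, a ratio of 1.41.

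In the nonoxidative branch, 3 of the 4 genes were higher in treated Huh7 and lower in treated HepG2-labelled cells, as were 21.0% of the 10758 genes considered in both lines, and 38.2% of those genes had opposite signs one way or the other. TKT encodes transketolase, the thiamine-dependent enzyme that moves carbon units between sugar phosphates (chromosome 3, 53224712 to 53256052). It stood at 195 FPKM in treated and 134 FPKM in untreated Huh7, but at 293 FPKM in treated and 349 FPKM in untreated HepG2-labelled cells. The treated library was the higher one in Huh7 (ratio 1.45, counting interval 1.39 to 1.52) and the lower one in HepG2-labelled cells (0.838, 0.812 to 0.865). TALDO1, which encodes transaldolase, the partner enzyme of this exchange (chromosome 11, 747415 to 765012), stood at 280 FPKM in treated and 215 FPKM in untreated Huh7, and at 202 FPKM in treated and 217 FPKM in untreated HepG2-labelled cells. Its untreated libraries were within counting error of each other as deposited (ratio of Huh7 to HepG2-labelled 0.987, 0.951 to 1.02), but not when rescaled to the same sum (0.941) or by median-ratio size factors (1.06). The ratio was 1.304 in Huh7 (1.26 to 1.35) and 0.930 in HepG2-labelled cells (0.894 to 0.967). The difference between the lines in response was not tested, as each rests on 1 library a group.

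RPE and RPIA turn the pentose phosphate of the oxidative branch into the substrates of transketolase, RPE as an epimerase and RPIA as an isomerase. RPE (chromosome 2, 210002565 to 210022260) stood at 12.2 FPKM in treated and 10.1 FPKM in untreated Huh7, and at 16.2 FPKM in treated and 19.2 FPKM in untreated HepG2-labelled cells. The ratio was 1.21 in Huh7 (1.02 to 1.44) and 0.842 in HepG2-labelled cells (0.735 to 0.965). The Huh7 interval included 1 when libraries were rescaled to the same sum (0.998 to 1.41) or by median-ratio size factors (0.939 to 1.32). RPE is the least certain of the 9, because 23.8% of its exonic bases overlap KANSL1L on the opposite strand and 29.9% of its 50-base stretches occur in other genes, RPEL1 among them. KANSL1L itself stood at 8.44 FPKM in treated and 5.41 FPKM in untreated Huh7, and at 3.43 and 3.40 FPKM in treated and untreated HepG2-labelled cells. Its part in the value of RPE was not tested. RPEL1 was under 0.13 FPKM in each library.

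RPIA (chromosome 2, 88691673 to 88750929) showed the smallest difference between lines in its response. It stood at 7.86 FPKM in treated and 8.90 FPKM in untreated Huh7, and at 8.80 FPKM in treated and 9.97 FPKM in untreated HepG2-labelled cells. Both ratios were 0.883 as deposited, with counting intervals that include 1 (0.724 to 1.08 in Huh7 and 0.732 to 1.07 in HepG2-labelled cells). With median-ratio size factors the Huh7 ratio was 0.813 and its interval left out 1 (0.666 to 0.992), so the Huh7 reading depends on the scaling. Summed over its 4 genes, the nonoxidative branch reached 494 FPKM in treated and 367 FPKM in untreated Huh7, a ratio of 1.35, and 520 FPKM in treated and 596 FPKM in untreated HepG2-labelled cells, a ratio of 0.873.

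**Figure D2:**
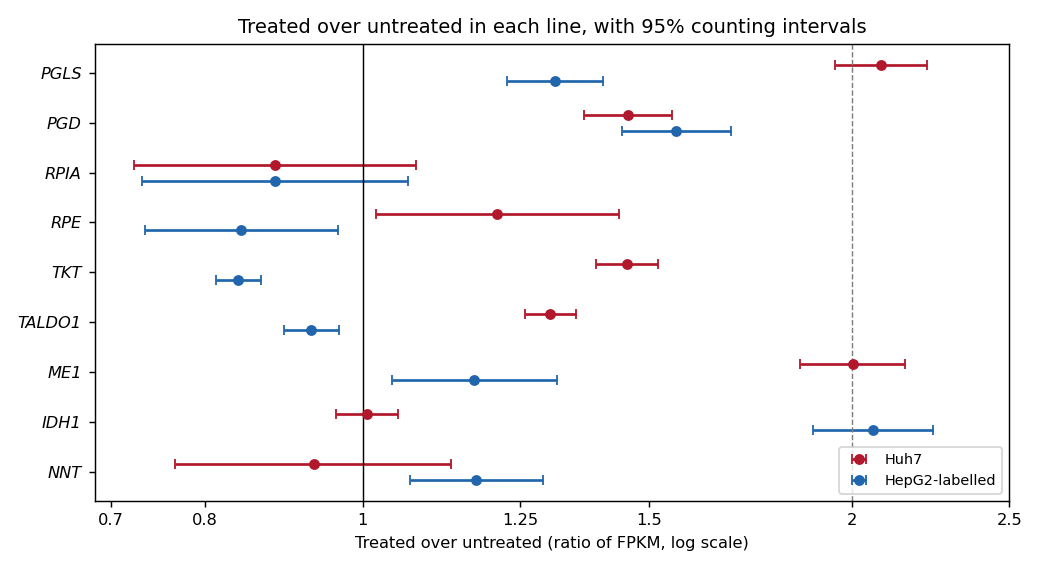
Ratio of treated to untreated FPKM for the 9 genes in Huh7 (red) and HepG2-labelled cells (blue) on a log scale, with 95% counting intervals as bars; the solid line is a ratio of 1 and the dashed line 2. PGLS and PGD lie right of 1 in both lines, TKT, TALDO1 and RPE right of 1 in Huh7 and left of it in HepG2-labelled cells, and ME1 and IDH1 lie near 2 in different lines.

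Of the NADPH sources outside the pathway, ME1 was the one near 2-fold in Huh7 and IDH1 the one near 2-fold in HepG2-labelled cells. ME1 encodes the cytosolic malic enzyme, which makes NADPH while turning malate into pyruvate (chromosome 6, 83210402 to 83431051). It stood at 85.3 FPKM in treated and 42.6 FPKM in untreated Huh7, and at 25.9 FPKM in treated and 22.1 FPKM in untreated HepG2-labelled cells. The ratio of FPKM was 2.002 in Huh7 (1.86 to 2.15), which with the added 1 FPKM comes to 1.98 and so just misses 2-fold, and 1.17 in HepG2-labelled cells (1.04 to 1.32). The lowest Huh7 value of ME1 lay above the highest HepG2-labelled one.

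IDH1 encodes the isocitrate dehydrogenase of cytosol and peroxisomes, which makes NADPH and alpha-ketoglutarate (chromosome 2, 208236227 to 208266074). It stood at 166 FPKM in treated and 165 FPKM in untreated Huh7, and at 66.7 FPKM in treated and 32.4 FPKM in untreated HepG2-labelled cells. As deposited, Huh7 thus held the same level in both libraries within counting error (ratio 1.01, 0.963 to 1.05). The treated HepG2-labelled cells held 2.06 times the untreated level (1.89 to 2.24) while staying under Huh7. The sign of the small Huh7 log2 ratio of 0.01 depends on the scaling and reached −0.11 with median-ratio size factors. Under that scaling the Huh7 ratio of FPKM was 0.926, with a counting interval that leaves out 1 (0.887 to 0.968). In log2 terms the ratio of IDH1 in HepG2-labelled cells, 1.02, stood above 93.6% of all genes considered in that line, and those of PGLS (1.05) and ME1 (0.98) in Huh7 above 96.8% and 95.9%.

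NNT encodes the transhydrogenase of the inner mitochondrial membrane, which uses the proton gradient to make NADPH from NADH (chromosome 5, 43602692 to 43707405). It stood at 8.30 FPKM in treated and 8.89 FPKM in untreated Huh7, and at 39.3 FPKM in treated and 33.5 FPKM in untreated HepG2-labelled cells. The ratio of 0.933 in Huh7 has a counting interval that includes 1 (0.767 to 1.13), and the ratio in HepG2-labelled cells was 1.18 (1.07 to 1.29). Summed over ME1, IDH1 and NNT, these sources reached 260 FPKM in treated and 217 FPKM in untreated Huh7, and 132 FPKM in treated and 87.9 FPKM in untreated HepG2-labelled cells.

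The lines were also set against each other. In untreated cells 1 of the 9 was at least 2-fold higher in Huh7 than in HepG2-labelled cells, where 17.5% of 12446 genes were, and 2 of the 9 were at least 2-fold lower, where 17.2% were. IDH1 was the higher one, with a ratio of FPKM of 5.11 (4.74 to 5.51). TKT and NNT were the lower ones, with 0.383 (0.368 to 0.398) and 0.266 (0.229 to 0.308). In treated cells the same ratios were 2.49 for IDH1, 0.664 for TKT and 0.211 for NNT, and that of ME1 was 3.30 (3.01 to 3.62), beside 1.93 in untreated cells.

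In the limma fit with treatment as the block, 5 of the 9 genes differed between the lines at an adjusted p under 0.05, where 37.6% of all 13030 genes did. Higher in Huh7 were IDH1 (log2 fold 1.81, SE 0.271, limma adjusted p = 0.00189), ME1 (log2 fold 1.3, SE 0.257, limma adjusted p = 0.00646) and PGD (log2 fold 0.64, SE 0.205, limma adjusted p = 0.0439). Lower in Huh7 were NNT (log2 fold −1.96, SE 0.24, limma adjusted p = 0.000736) and TKT (log2 fold −0.98, SE 0.233, limma adjusted p = 0.0136). The limma adjusted p of PGD ran from 0.0288 to 0.198 over the alternatives and that of TKT from 0.00542 to 0.0666, so the call of PGD ended under 4 of 7 alternatives and that of TKT under 1, the fit with no filter on low values. RPE had a limma adjusted p of 0.09, and those of RPIA, PGLS and TALDO1 were 0.676, 0.623 and 0.415. This fit sets a line difference against the difference between the lines' responses, joined with the variance fitted over all genes. Neither is a spread between repeat cultures, since each line has 1 culture per condition.

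**Figure D3:**
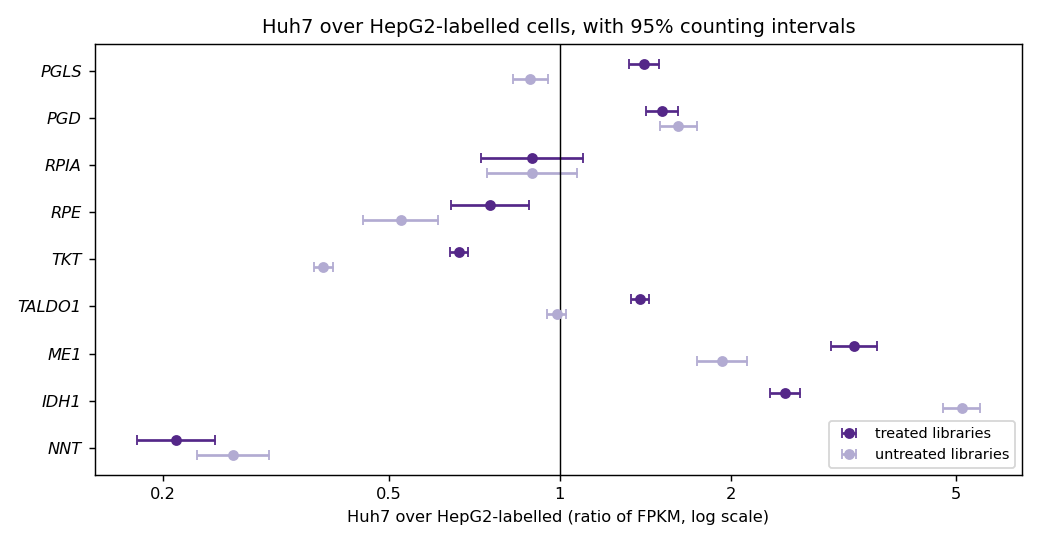
Ratio of FPKM in Huh7 to FPKM in HepG2-labelled cells for the 9 genes, in treated (dark) and untreated (light) libraries, on a log scale with 95% counting intervals as bars. IDH1, ME1 and PGD lie right of 1 and TKT, RPE and NNT left of 1 in both; PGLS and TALDO1 lie right of 1 in the treated libraries only.

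Genes around the 9 were read from 7 lists of related function. Over all genes considered, 3.88% were at least 2-fold higher and 2.19% lower in Huh7, and 6.7% higher and 2.43% lower in HepG2-labelled cells. Of 14 further pentose phosphate genes, 9 were considered in Huh7 and 10 in HepG2-labelled cells, and none was 2-fold higher or lower in either line (median log2 ratio 0.27 in Huh7 and 0.01 in HepG2-labelled cells). H6PD, which makes NADPH inside the endoplasmic reticulum, missed 2-fold through the added 1 FPKM: it stood at 4.88 FPKM in treated and 2.07 FPKM in untreated HepG2-labelled cells, a ratio of FPKM of 2.36, and at 11.2 FPKM in treated and 7.89 FPKM in untreated Huh7. PRPS1, which turns ribose phosphate into the precursor of nucleotides, stood at 40.0 FPKM in treated and 45.4 FPKM in untreated Huh7, and at 34.2 FPKM in treated and 48.3 FPKM in untreated HepG2-labelled cells. Of 15 genes at the branch point with glycolysis, 9 were considered in Huh7 and 10 in HepG2-labelled cells, and none was past 2-fold. There GPI, which sends hexose phosphate down glycolysis, stood at 137 FPKM in treated and 112 FPKM in untreated Huh7, and at 145 FPKM in treated and 183 FPKM in untreated HepG2-labelled cells, so that it was higher in one line and lower in the other, as TKT was.

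A further list held 13 genes on or near other routes to NADPH: folate and serine, glutamate, mitochondrial isocitrate, and the malic enzymes ME2 and ME3. In each line 11 were considered. Of these, 1 was 2-fold higher, ALDH1L2 in HepG2-labelled cells, where 6.7% of all genes were, and none was lower. ALDH1L2, a mitochondrial folate enzyme that makes NADPH, stood at 4.90 FPKM in treated and 1.26 FPKM in untreated HepG2-labelled cells and at 0.826 and 0.849 FPKM in treated and untreated Huh7. MTHFD2, of the same mitochondrial folate route, stood at 80.1 FPKM in treated and 41.2 FPKM in untreated HepG2-labelled cells (log2 ratio 0.94) and at 44.3 and 41.5 FPKM in treated and untreated Huh7. Of 11 genes of NAD and NADP turnover, 10 were considered in Huh7 and 9 in HepG2-labelled cells, and none was past 2-fold. HDDC3, which removes phosphate from NADPH and so does not supply it, stood at 10.8 FPKM in treated and 5.05 FPKM in untreated Huh7. Its ratio of FPKM was 2.13 before the 1 FPKM was added. NADK, the kinase that makes NADP, had log2 ratios of 0.17 in Huh7 and 0.16 in HepG2-labelled cells. Another 15 genes handle citrate, isocitrate, malate or pyruvate, and all were considered in both lines. Of these, 1 was 2-fold lower in Huh7, where 2.19% of all genes were. It was the pyruvate carboxylase gene PC (25.8 FPKM in treated and 53.4 FPKM in untreated cells). None was past 2-fold in HepG2-labelled cells. IDH3A of this list stood at 15.7 FPKM in treated and 7.65 FPKM in untreated Huh7. Its ratio of FPKM, 2.05, fell under 2-fold with the added 1 FPKM.

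On the side of use, 2 of 16 NADPH-using enzymes considered in Huh7 and 1 of 17 in HepG2-labelled cells were 2-fold higher, and none was lower, where 3.88% of all genes in Huh7 and 6.7% in HepG2-labelled cells were that much higher. BLVRB, which reduces biliverdin and flavins, was the one past 2-fold in both lines, at 196 FPKM in treated and 77.0 FPKM in untreated Huh7 and at 118 FPKM in treated and 52.7 FPKM in untreated HepG2-labelled cells. TXNRD1, the cytosolic thioredoxin reductase, stood at 78.4 FPKM in treated and 37.5 FPKM in untreated Huh7 and at 286 and 259 FPKM in treated and untreated HepG2-labelled cells. Its Huh7 call ended with median-ratio size factors. In the list of NRF2, its regulators and targets, 5 of 13 were 2-fold higher in each line and none lower. These were GCLC, SRXN1, HMOX1, FTL and FTH1 in Huh7 and MAFF, MAFK, HMOX1, FTL and FTH1 in HepG2-labelled cells. The shares of all genes given above, 3.88% and 6.7%, apply here too. With median-ratio size factors 3 of 13 were past 2-fold in Huh7, without GCLC and SRXN1, and 4 of 13 in HepG2-labelled cells, without MAFF. SLC7A11, the cystine importer, had a ratio of FPKM of 2.34 in Huh7 (5.36 FPKM in treated and 2.29 FPKM in untreated cells), under 2-fold with the added 1 FPKM. NFE2L2, which encodes NRF2, was higher in treated Huh7, at 46.3 FPKM against 33.6 FPKM in untreated cells, and lower in treated HepG2-labelled cells, at 19.0 FPKM against 35.0 FPKM in untreated cells.

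**Figure D4:**
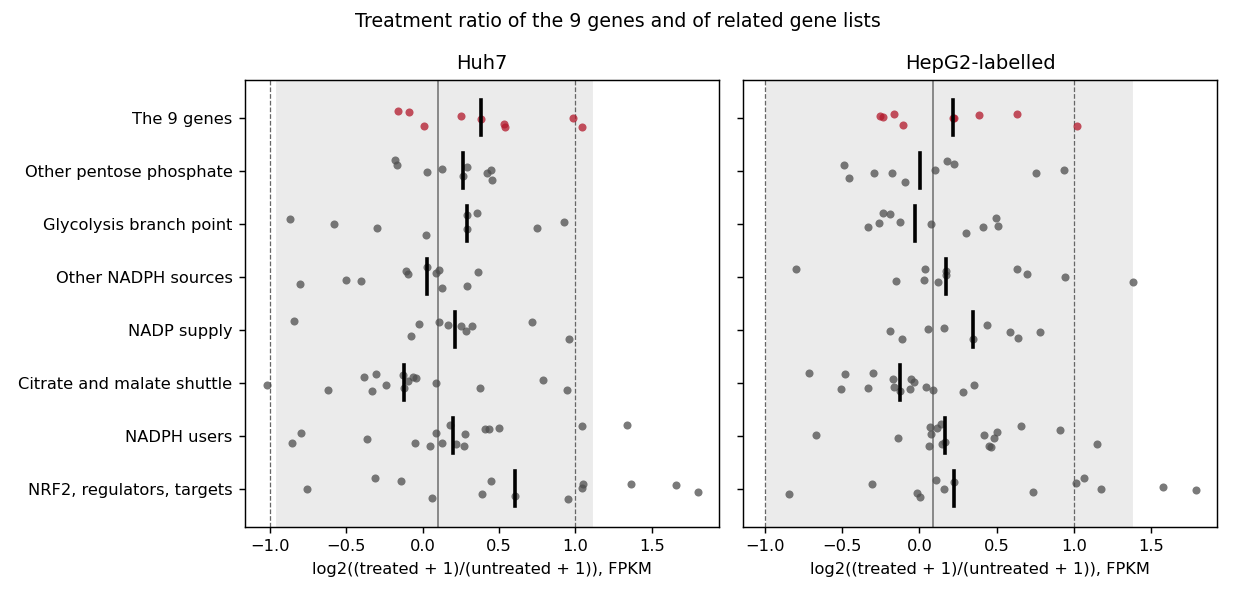
Treatment log2 ratio of the 9 genes (red) and of the genes of 7 related lists (grey) in Huh7 (left) and HepG2-labelled cells (right), with the median of each list as a black bar. The grey band holds 95% of all genes considered in the line, the grey line is their median, and the dashed lines mark 2-fold; the median of the 9 genes is 0.38 in Huh7 and 0.22 in HepG2-labelled cells.

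Noncoding genes named after 3 of the 9 were in the table of long noncoding transcripts, at low levels. NNT-AS1, transcribed from the strand opposite NNT, summed over 6 transcripts to 0.896 FPKM in treated and 1.89 FPKM in untreated Huh7, and to 0.940 FPKM in treated and 7.74 FPKM in untreated HepG2-labelled cells. Most of the untreated HepG2-labelled value came from the transcript NNT-AS1-204, at 6.28 FPKM, which was at 0.000635 FPKM in the treated library. NNT itself was not lower in that treated library, and 2.6% of its exonic bases overlap NNT-AS1. IDH1-AS1 summed to 0.994 FPKM in treated and 1.11 FPKM in untreated Huh7, and to 0.695 FPKM in treated and 0.196 FPKM in untreated HepG2-labelled cells. PGLS-DT, transcribed from the opposite strand and away from PGLS, is listed in the table as AC010618.4. It summed to 1.00 FPKM in treated and 0.310 FPKM in untreated Huh7, and to 2.28 FPKM in treated and 0.884 FPKM in untreated HepG2-labelled cells. In GENCODE 29, 9.2% of the exonic bases of PGLS overlap PGLS-DT. The labels do not say whether strand was kept, so reads from the overlapping stretches cannot be told apart.

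For IDH1 and PGLS, the members with the largest treatment ratio in a line, the 3 genes with the nearest pattern over the 4 libraries were sought by Euclidean distance of centred log2(FPKM + 1) among 13029 genes. Nearest to IDH1 were RAB3D (distance 0.158), RGS14 (0.161) and RND1 (0.165), and nearest to PGLS were KDM3A (0.074), TBCK (0.076) and KCTD18 (0.08). RAB3D, for instance, stood at 17.6 and 19.2 FPKM in treated and untreated Huh7 and at 7.60 and 3.23 FPKM in treated and untreated HepG2-labelled cells.

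The authors' deposited table of KEGG enrichment gives the pentose phosphate pathway 4 of 28 genes for Huh7 (the authors' p = 0.588, corrected p = 1.0) and 2 of 28 for HepG2-labelled cells (the authors' p = 0.965, corrected p = 1.0), and 0 of the 9 genes is among them in either line. In the authors' deposited table of Gene Ontology enrichment, IDH1 is the one gene of the 9 named under any term for HepG2-labelled cells, for example under NADPH regeneration with 2 of 17 genes (the authors' p = 0.738, corrected p = 1.0). None of the 9 is named under any term for Huh7 in the authors' deposited table. The gene lists behind these terms held 3213 genes for HepG2-labelled cells and 2438 for Huh7, beside a background of 22135 genes.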

How the data were processed

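The authors deposited FPKM values per coding gene and per long noncoding transcript, 1 column per library, per the file headers. Tools listed, without roles, in the submitters' processing notes are HISAT2, GATK, SAMtools 0.1.18, StringTie 1.3.1, Picard 1.96, Bowtie2 2.2.8 and Cuffdiff 2.1.1. The genome build is not stated there; the tables' gene positions were placed on GRCh38 by comparison with GENCODE 29. The authors also deposited p-values and numbers of genes from their enrichment tests, per the file headers. The members and lists were chosen with earlier results of these data known.

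Ratios were taken on log2(FPKM + 1) and called at 2-fold over genes of at least 1 FPKM in a library compared. limma 3.58.1 (R 4.3.3, trend) was fitted across all genes and tested on simulated data. Depth came from the step of low values in genes with 1 transcript, and exact 95% counting intervals from fragments per kilobase. All 9 members were named, with list genes past 2-fold and up to 3 abundant others per list eligible. Overlap with other genes was measured on GENCODE 29 exons and 50-base stretches of its transcripts. A further marker on the hepatocyte list is not reported here. H6PD, HDDC3, IDH3A and SLC7A11 were named after their values were seen.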

Additional observations from a re-analysis of the deposited data

Results flagged for a closer look

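TKT, TALDO1 and RPE, all of the nonoxidative branch, were higher in the treated than in the untreated library in Huh7 and lower in it in HepG2-labelled cells, with counting intervals that leave out a ratio of 1 in both lines as deposited. Under the same rule 6.43% of 10758 genes did so in this direction and 12.2% in either. For RPE the Huh7 interval included 1 under both rescalings, and RPE overlaps KANSL1L on the opposite strand. The treatment log2 ratio in Huh7 minus that in HepG2-labelled cells was 0.79 for TKT, 0.487 for TALDO1 and 0.486 for RPE. With 1 library per group, this difference was not tested.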

How the results depend on the processing

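With no replicate in any group, the spread between cultures is unknown, and no replicate could be left out. No paired analysis was possible because each group holds 1 library and so no replicate number to pair on, beyond the block on cell line that the limma fit already has. Median-of-ratios size factors gave 0 members past 2-fold in Huh7 and 0 in HepG2-labelled cells, 5 list genes past 2-fold in Huh7 in place of 8 (11 with a pseudocount of 0.1), 6 in HepG2-labelled cells in place of 7 (8 with a pseudocount of 0.1), and a member median of 0.263 in Huh7. With no filter, limma called 3 members for cell line in place of 5. A pseudocount of 0.1 counted 970 genes higher and 422 lower in Huh7 in place of 464 and 261, and 1331 higher in HepG2-labelled cells in place of 794. limma called 0 to 3 genes for treatment over the alternatives, and 0 members in each. Of 261 recomputed values of single members, 243 kept within counting error or on their side of the threshold, 13 moved beyond counting error, 5 lost the limma call for cell line (PGD under 4 alternatives, TKT under 1) and 0 of the called ones changed sign. A change of the filter on low values cannot alter the ratio of a member, so the 243 include values that were fixed in advance. The cause of the changes under the other settings was not tested.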
